A study of Homo sapiens with 6 samples.

Results

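The RNA-seq counts of SR protein and hnRNP splicing genes were examined in HEK293T cells, an established line from human embryonic kidney with the large T antigen of SV40. Members were the genes whose symbols in the count tables fit the SRSF, HNRNP or TRA2 families, without pseudogenes and hyphenated names, together with the kinases SRPK1, SRPK2 and CLK1 to CLK4. They numbered 46 of 47470 listed genes, made up of 12 SR protein genes, 26 hnRNP genes, 2 TRA2 genes and 6 kinase genes. One group of 3 libraries came from cells exposed to valproic acid (VPA), which inhibits histone deacetylases, at 1 mM for 1 day. The other group of 3 libraries came from cells that received no treatment, and the labels name no vehicle control. The labels number the replicates without saying whether they came from separate cultures, so the p-values measure the spread between these libraries, which may be technical. All libraries are of a single cell line of wild-type genotype, and gene counts add up all splice forms of a gene.

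SR proteins carry an RNA recognition motif and a stretch rich in arginine and serine, bind enhancer sequences in exons and recruit the splicing machinery to nearby splice sites. Many hnRNP proteins bind intronic or exonic silencers and oppose this recruitment, and both groups also act in mRNA export, stability and translation. SRPK kinases in the cytoplasm and CLK kinases in the nucleus phosphorylate the serines of SR proteins and so set where they are and what they bind. Many of these genes limit their own output by splicing in an exon with an early stop codon, which sends the transcript to nonsense-mediated decay.

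Total counts on genes lay between 18622267 and 18828495 per library, so that depth differed little. Of the 47470 genes, 15298 had enough counts to be tested, with edgeR's quasi-likelihood test after TMM scaling, which sets the libraries so that most genes are held level. Adjusted p-values are Benjamini-Hochberg values over these genes, and normalized counts are TMM-scaled counts at the mean library size. Variation between libraries beyond counting noise was low (biological coefficient of variation 3.83%), and small changes passed the test in well-counted genes. As a check of the cell type, VIM was at 10729 ± 139 normalized counts in untreated cells (SD, n = 3) and SALL1 was also counted. The other listed markers of this line, PAX2 and LHX1, were low in untreated cells. PAX2 stood at 29.5 ± 0.390 without and 142 ± 1.07 with VPA, and LHX1 at 73.7 ± 3.43 without and 127 ± 11.5 with it. None of 6 markers of blood, endothelial, liver, T cell and basal epithelial cells reached more than 13 counts over the 6 libraries, and their summed level was 0 to 2.09 normalized counts in untreated and 5.74 to 17.2 in VPA-treated libraries.

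With TMM scaling, transcripts of most SR protein and hnRNP genes were lower in VPA-treated cells. Of the 41 members tested, 34 were lower at an adjusted p under 0.05 and 0 were higher, while with the libraries scaled to ribosomal protein genes 7 were lower and 5 higher. Changes of the lower members ran from -28.7% to -11.2%, and no member reached the 2-fold change that the study set for differentially expressed genes. By comparison, 30.0% of all tested genes were lower at the same threshold and 32.9% were higher. Among the 4640 tested genes whose mean reached 1000 normalized counts 57.4% were lower and 14.6% higher, and 32 of the 33 members in that range were lower. The median log2 fold change was -0.25 over the tested members, -0.15 over genes with a mean of at least 1000 and 0.0058 over all tested genes. At an unadjusted p under 0.05, 0 members were higher with edgeR and 0 with DESeq2, and at the 2-fold threshold neither tool called a member lower, against 0.503% of all tested genes with edgeR. At that threshold no member was higher either, against 1833 of the 15298 tested genes with edgeR.

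**Figure D1:**
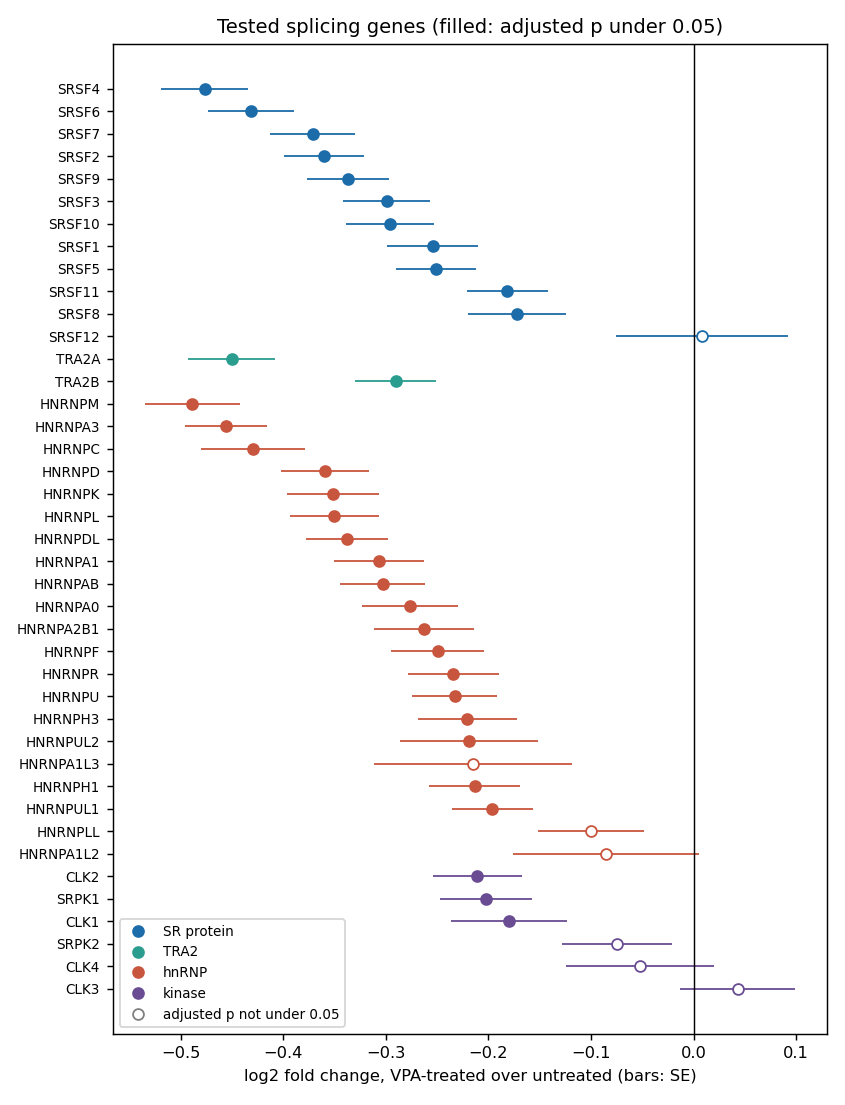
Log2 fold change of VPA-treated over untreated cells for the 41 tested members (x axis; bars, standard error), grouped by family and ordered by size, with filled points for an adjusted p under 0.05. The filled points lie between -0.49 and -0.17 and the 7 open points between -0.22 and 0.04.

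The size of these decreases depended on how the libraries were scaled. The median of the members was -0.25 with TMM, -0.27 with DESeq2 size factors, -0.19 with the upper quartile, -0.12 under library totals and 0.019 under ribosomal protein scaling. The median of all tested genes moved alongside, from 0.0058 with TMM to 0.14 under library totals and 0.28 under ribosomal protein scaling. A change of scaling moves the log2 fold changes of all genes by nearly the same amount, so the distance of the members' median from that of all tested genes, -0.26, is a single observation and not a check of stability. The number of lower members was 35 with DESeq2 size factors, 31 with the upper quartile, 25 under library totals and 7 under ribosomal protein scaling. HNRNPM, SRSF4, HNRNPA3, TRA2A, SRSF6, HNRNPC and SRSF7 were lower under each of the 5 scalings. In the unscaled counts, SR protein genes took 0.476% to 0.481% of the reads on genes in untreated libraries and 0.412% to 0.427% in VPA-treated libraries. For hnRNP genes the share was 1.78% to 1.85% in untreated and 1.56% to 1.63% in VPA-treated libraries. All members together held 2.40% ± 0.0392 of the reads on genes without VPA and 2.12% ± 0.0512 with it (SD, n = 3 each), so that this share was smaller by more than the spread between libraries. In RNA from a whole culture, fewer cells that express a gene and less RNA per cell cannot be told apart. A share of the reads also becomes smaller when reads on other genes rise. These counts cannot tell that from a loss of the members' own transcripts.

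**Figure D2:**
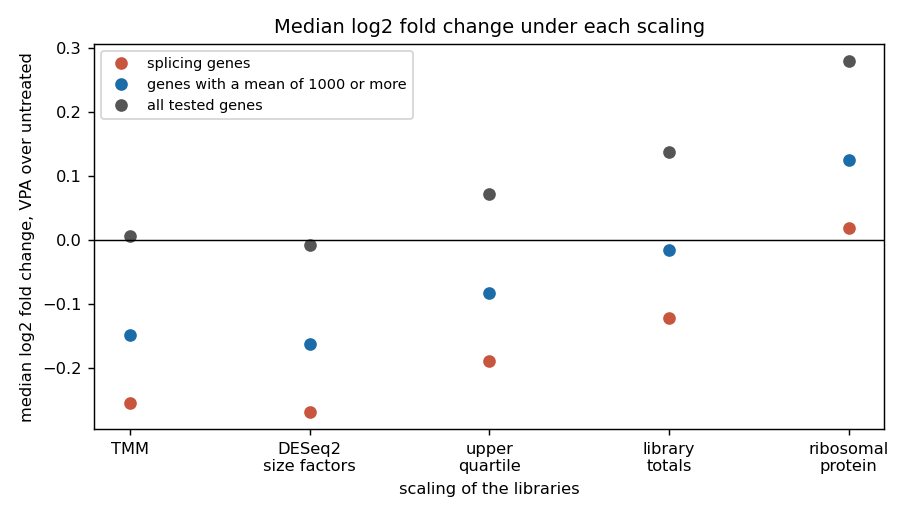
Median log2 fold change of VPA-treated over untreated cells (y axis) under 5 scalings of the libraries (x axis), for the tested splicing genes, for genes whose mean reached 1000 normalized counts and for all tested genes. The median of the splicing genes is -0.25 with TMM and 0.019 with ribosomal protein scaling, and the 3 medians shift together by construction.

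Among the SR protein genes, 11 of 12 were lower, with changes of -28.1% to -11.2% and a median log2 fold change of -0.30. The largest decrease was in SRSF4, whose protein has a pair of RNA-binding domains and a long arginine-serine tail. SRSF4, at chromosome 1, positions 29147743 to 29181900 of the minus strand, had 5856, 5544 and 5906 normalized counts in the untreated and 3950, 4319 and 4167 in the VPA-treated libraries. The 2 groups did not overlap, a pattern of lower values that 36 of the 41 tested members and 31.0% of all tested genes showed. SRSF4 was at a log2 fold change of -0.48 (standard error 0.043, adjusted p = 3.32e-09). SRSF6, a close relative of SRSF4, had 7512, 7893 and 7791 normalized counts in untreated and 5474, 5930 and 5797 in VPA-treated libraries. Every VPA-treated library was under every untreated one, with a log2 fold change of -0.43 (standard error 0.042, adjusted p = 1.02e-08). SRSF5, the third gene with this domain structure, had a smaller log2 fold change of -0.25.

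SRSF7 and SRSF3 encode SR proteins that also serve as adaptors of mRNA export. SRSF7 had 8005, 8518 and 8360 normalized counts in untreated and 6160, 6571 and 6505 in VPA-treated libraries. The groups were apart here too, with a log2 fold change of -0.37 (standard error 0.041, adjusted p = 9.15e-08), against -0.30 for SRSF3. SRSF2, which recognises exonic enhancers rich in C or G, had 11485, 11292 and 10917 normalized counts in untreated and 8801, 8772 and 8677 in VPA-treated libraries. The groups were well apart relative to their SDs of 288.6 and 64.6, and the log2 fold change was -0.36 (standard error 0.039, adjusted p = 6.95e-08). SRSF8, a retrocopy relative of SRSF2, was lower by a log2 fold change of -0.17, the smallest among the lower SR protein genes, and lost its call with the upper quartile (adjusted p = 0.0597), library totals and ribosomal protein scaling. SRSF1, the founding member of the family, had a log2 fold change of -0.25 and its relative SRSF9 one of -0.34. SRSF10, which acts as a splicing repressor when it loses its phosphates, was at -0.30 and SRSF11 at -0.18. The member that did not pass was SRSF12, with 243, 270 and 275 normalized counts in untreated and 243, 268 and 281 in VPA-treated libraries. The 2 groups lay over each other, at a log2 fold change of 0.0081 (standard error 0.084, adjusted p = 0.94).

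TRA2A and TRA2B, which encode the human counterparts of the Drosophila splicing regulator transformer-2 and bind GAA-rich exonic enhancers, were both lower. TRA2A, on chromosome 7 from 23504780 to 23531981, had 3108, 3091 and 3315 normalized counts in untreated and 2275, 2344 and 2345 in VPA-treated libraries. TRA2B had 5873, 5883 and 5935 in untreated and 4731, 5018 and 4719 in VPA-treated libraries. The groups did not overlap in either gene. The log2 fold change was -0.45 for TRA2A (standard error 0.042, adjusted p = 6.51e-09) and -0.29 for TRA2B (standard error 0.040, adjusted p = 1.65e-06), although TRA2B was at -0.018 with ribosomal protein scaling.

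**Figure D3:**
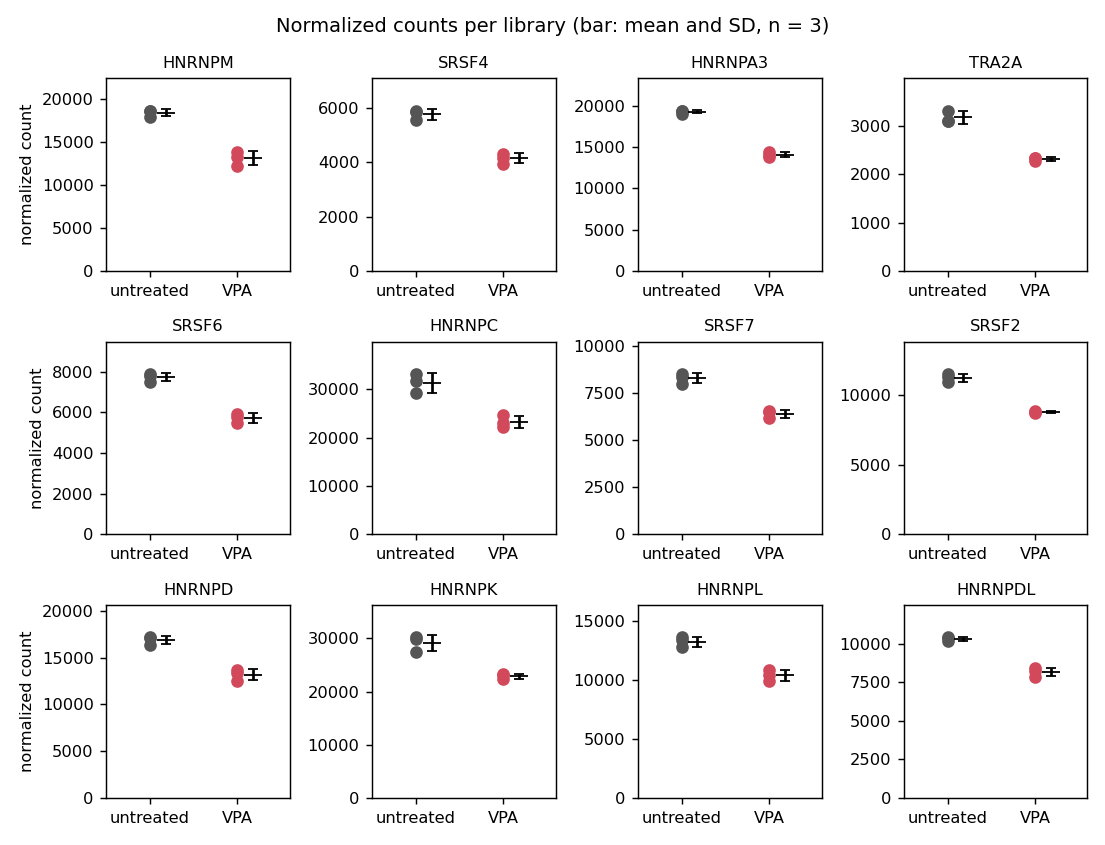
Normalized counts per library (y axis, from 0) in untreated and VPA-treated cells for the 12 members with the largest change at an adjusted p under 0.05; points are libraries and bars the mean and SD (n = 3). In each panel the 3 VPA-treated points lie under the 3 untreated points, from HNRNPM (18406 to 13120 in the mean) to HNRNPDL (10311 to 8159).

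Of the 26 hnRNP genes 21 were tested, and 18 were lower, with changes of -28.7% to -12.7% and a median log2 fold change of -0.26. HNRNPM showed the largest decrease of all members. Its protein regulates the inclusion of alternative exons. HNRNPM, on chromosome 19 from 8444975 to 8489114 on the plus strand, had 17917, 18669 and 18632 normalized counts in untreated and 12223, 13846 and 13291 in VPA-treated libraries. The highest VPA-treated library stayed far under the lowest untreated one, with a log2 fold change of -0.49 (standard error 0.046, adjusted p = 7.50e-09). HNRNPC, on chromosome 14 from 21209147 to 21269442, encodes a protein that binds runs of uridines and keeps cryptic exons out. It had 29168, 31722 and 33160 normalized counts in untreated and 22212, 22980 and 24663 in VPA-treated libraries. The untreated libraries of HNRNPC were more spread than those of HNRNPM but the groups stayed apart, with a log2 fold change of -0.43 (standard error 0.051, adjusted p = 2.16e-07). HNRNPK, which binds runs of cytosines, had 27420, 30166 and 29915 normalized counts in untreated and 22274, 23220 and 23089 in VPA-treated libraries. HNRNPL, which binds CA repeats, had 13358, 13587 and 12740 in untreated and 10812, 10439 and 9879 in VPA-treated libraries. Both genes had a log2 fold change of -0.35, with adjusted p-values of 7.52e-07 for HNRNPK and 4.49e-07 for HNRNPL.

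The A/B and D branches of the family encode proteins with a pair of RNA-binding domains and a glycine-rich tail. HNRNPA3, on chromosome 2 from 177212794 to 177223959, was the most changed of them, with 19346, 19013 and 19401 normalized counts in untreated and 13756, 14335 and 14016 in VPA-treated libraries. That is a log2 fold change of -0.46 (standard error 0.040, adjusted p = 2.46e-09), with groups far apart relative to their SDs of 209.9 and 290.1. HNRNPA1, an exon repressor and the member with the most counts, had 52370, 54725 and 55293 normalized counts in untreated and 42850, 43676 and 44773 in VPA-treated libraries. HNRNPA2B1 had 44030, 47206 and 48404 in untreated and 36927, 38871 and 40589 in VPA-treated libraries. Neither gene overlapped between groups, with log2 fold changes of -0.31 (standard error 0.044, adjusted p = 3.46e-06) and -0.26 (standard error 0.048, adjusted p = 7.14e-05). HNRNPD, also known as AUF1 and a regulator of mRNA decay at AU-rich elements, had 16415, 17170 and 17117 normalized counts in untreated and 12518, 13673 and 13335 in VPA-treated libraries. Its relative HNRNPDL had 10381, 10154 and 10399 in untreated and 7858, 8420 and 8198 in VPA-treated libraries. The log2 fold changes of this pair were close, -0.36 for HNRNPD (adjusted p = 2.85e-07) and -0.34 for HNRNPDL (adjusted p = 2.56e-07). HNRNPAB had 15120, 16325 and 16012 normalized counts in untreated and 12769, 12884 and 12809 in VPA-treated libraries, a log2 fold change of -0.30 (adjusted p = 1.71e-06).

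The other lower hnRNP genes changed less. HNRNPA0 was at a log2 fold change of -0.28, HNRNPF at -0.25, HNRNPR at -0.23 and HNRNPH3 at -0.22. HNRNPH1, whose protein binds runs of guanines like that of HNRNPF, was at -0.21. HNRNPU, which encodes a nuclear scaffold protein that binds chromatin-associated RNA, was at -0.23, and its relative HNRNPUL1 at -0.20. HNRNPUL2 was at -0.22 (adjusted p = 0.0072), and its call was lost without untreated replicate 2 (adjusted p = 0.061), with the upper quartile and with library totals. With ribosomal protein scaling the call was also lost and the log2 fold change was 0.054. HNRNPUL2 lies within the readthrough gene HNRNPUL2-BSCL2 on the same strand. That gene was listed at 0 in all 6 libraries while HNRNPUL2 had 3109 counts in total. How reads that fit both genes were counted cannot be told from the files.

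The hnRNP genes that did not pass were HNRNPLL, HNRNPA1L2 and HNRNPA1L3. HNRNPLL, the relative of HNRNPL known for its part in splicing of CD45 in lymphocytes, had 967, 1005 and 987 normalized counts in untreated and 911, 963 and 886 in VPA-treated libraries. Its log2 fold change was -0.10 (standard error 0.051, adjusted p = 0.095), although the groups did not overlap, and with the replicate number as a block the adjusted p was 0.037. With ribosomal protein scaling it was called higher instead (0.17, adjusted p = 0.0052). HNRNPA1L2 and HNRNPA1L3 are copies of HNRNPA1, so their counts are uncertain, since reads may be shared with HNRNPA1 or set aside. HNRNPA1L2 had a log2 fold change of -0.086 and HNRNPA1L3 one of -0.22 with adjusted p-values of 0.43 and 0.057, and HNRNPA1L3 passed with DESeq2 size factors, without the filter on low counts, with the replicate block and without untreated replicate 2 or VPA-treated replicate 2. The remaining 5 hnRNP genes were not tested. HNRNPCL1 and HNRNPCL4, copies of HNRNPC, had 21 and 6 counts over the 6 libraries, HNRNPCL2 and HNRNPCL3 were listed at 0, and HNRNPH2 was listed at 0, as was each of the 1437 listed genes that RefSeq places on chromosome X. The 0 of HNRNPH2 therefore cannot be read as absence of its transcript.

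The kinases of SR proteins changed less than the SR protein genes, with a median log2 fold change of -0.13 over 6 tested genes, a difference that was not tested. SRPK1, CLK2 and CLK1 were lower by 11.7% to 13.6% and SRPK2, CLK4 and CLK3 did not pass. These 3 of 6 stand beside 30.0% lower among all tested genes. Among genes counted at 1000 or more on average, a level that CLK1, CLK3 and CLK4 missed, 57.4% were lower. The median of those genes was -0.15. In the unscaled counts the kinases took 0.0531% to 0.0566% of the reads on genes in untreated libraries. The range was 0.0528% to 0.0553% in VPA-treated libraries, so the groups overlapped. SRPK1 had 4357, 4846 and 4697 normalized counts in untreated and 3835, 4162 and 4084 in VPA-treated libraries. CLK2 had 2383, 2451 and 2611 in untreated and 2155, 2132 and 2146 in VPA-treated libraries. CLK1 had 1001, 991 and 1034 in untreated and 840, 864 and 968 in VPA-treated libraries. In each of these genes the groups stayed apart, though CLK1 by a narrow margin. Their log2 fold changes were -0.20 for SRPK1 (adjusted p = 0.00053), -0.21 for CLK2 (adjusted p = 0.00024) and -0.18 for CLK1 (adjusted p = 0.0084), and none of these calls held with library totals or ribosomal protein scaling. CLK1 also lost its call with the upper quartile (-0.11, adjusted p = 0.09). SRPK2 had 1236, 1336 and 1409 normalized counts in untreated and 1194, 1279 and 1307 in VPA-treated libraries. CLK4 had 433, 373 and 425 in untreated and 417, 394 and 377 in VPA-treated libraries. CLK3 had 894, 931 and 981 in untreated and 1002, 897 and 990 in VPA-treated libraries. The groups overlapped in all of the last 3 genes. The log2 fold changes were -0.074 for SRPK2 (standard error 0.053, adjusted p = 0.23), -0.052 for CLK4 (standard error 0.072, adjusted p = 0.55) and 0.043 for CLK3 (standard error 0.056, adjusted p = 0.52). SRPK2 passed as lower when untreated replicate 1 was left out (adjusted p = 0.036), and CLK3 passed as higher with library totals (adjusted p = 0.011). With ribosomal protein scaling CLK3, CLK4 and SRPK2 were all called higher, at log2 fold changes of 0.32, 0.22 and 0.20, as was SRSF12 at 0.28. On the opposite strand SRPK2 overlaps KMT2E, CLK3 overlaps EDC3, CLK2 overlaps HCN3 and SRPK1 overlaps LHFPL5, and the strand setting of the counting is not given in the sources used here. Such overlaps with protein-coding genes are not particular to the kinases. They are also annotated for HNRNPA3, HNRNPA2B1, HNRNPAB, HNRNPH3, HNRNPU, HNRNPUL1, SRSF2 and SRSF9. SRSF1, SRSF6 and HNRNPL overlap protein-coding genes on the same strand.

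Levels were compared between members per length, as RPKM with TMM scaling over the length of the MANE Select transcript. They spanned a 198-fold range in untreated cells over the 40 tested members with such a transcript, with a median of 147. HNRNPA1 was the highest at 772 ± 22.1 (SD, n = 3), followed by HNRNPA2B1 at 685 ± 33.3, HNRNPK at 539 ± 28.1, HNRNPC at 529 ± 34.1 and HNRNPAB at 477 ± 18.9. HNRNPK and HNRNPC did not differ beyond their spread. The most abundant SR protein transcripts were those of SRSF9 at 462 ± 14.6 and SRSF2 at 318 ± 8.15, and HNRNPH1 at 452 ± 18.5 lay within the spread of SRSF9. In 16 of the 39 pairs of neighbours in this order the levels were closer than the sum of their SDs. At the low end stood SRSF12 at 3.91 ± 0.254, HNRNPUL2 at 5.72 ± 0.435 and CLK4 at 8.76 ± 0.692. The level of HNRNPUL2 is uncertain, since it is not known how reads that also fit HNRNPUL2-BSCL2 were counted. Among the kinases CLK2 at 61.5 ± 2.89 and SRPK1 at 56.9 ± 3.08 were the highest of the 6. The members that did not pass had means of 190 to 1293 normalized counts and standard errors of 0.051 to 0.096, whereas the lower members had means of 519 to 48948 and standard errors of 0.039 to 0.067. The part of these lower counts in the missed calls was not tested.

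**Figure D4:**
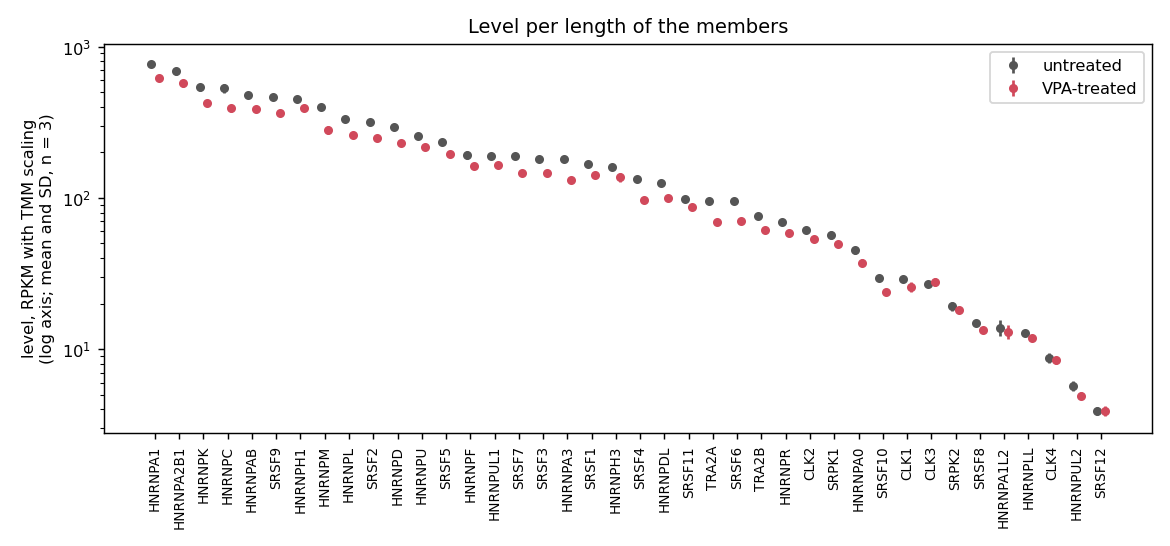
Level of each tested member with a MANE Select transcript, in RPKM with TMM scaling (y axis, log scale; points are means and bars SD, n = 3), ordered by the untreated level. Levels run from 772 for HNRNPA1 to 3.91 for SRSF12, and the VPA-treated point lies under the untreated one for all but CLK3 and SRSF12.

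Ratios between related members within a library do not depend on the scaling. They were computed for 17 pairs with related domains, which were picked after the fold changes were known, and compared with a two-sided exact permutation test, whose smallest possible p for 3 libraries against 3 is 0.1. The smallest p-value of 0.1 was reached by 9 pairs, with a Benjamini-Hochberg adjusted p of 0.189 over the 17. The log2 ratio of TRA2A to TRA2B was -0.92, -0.93 and -0.84 in untreated and -1.06, -1.10 and -1.01 in VPA-treated libraries, so that TRA2A was the more reduced of the 2 in every VPA-treated library (exact permutation p = 0.1). SRSF4 against SRSF5 moved from -0.12, -0.26 and -0.16 in untreated to -0.44, -0.36 and -0.42 in VPA-treated libraries (exact permutation p = 0.1), while SRSF4 against SRSF6 overlapped between groups (mean difference -0.05, exact permutation p = 0.4). The ratio of CLK2 to CLK3 was 1.42, 1.40 and 1.41 in untreated and 1.10, 1.25 and 1.12 in VPA-treated libraries (exact permutation p = 0.1). HNRNPA3 fell against HNRNPA2B1 by 0.19 on the log2 scale, and HNRNPL against HNRNPLL by 0.25. By contrast, HNRNPA1 to HNRNPA2B1, HNRNPD to HNRNPDL, HNRNPF to HNRNPH1 and HNRNPU to HNRNPUL1 moved by 0.02 to 0.04 in size with groups that overlapped. With 3 libraries a group no single ratio could pass an adjusted threshold of 0.05.

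**Figure D5:**
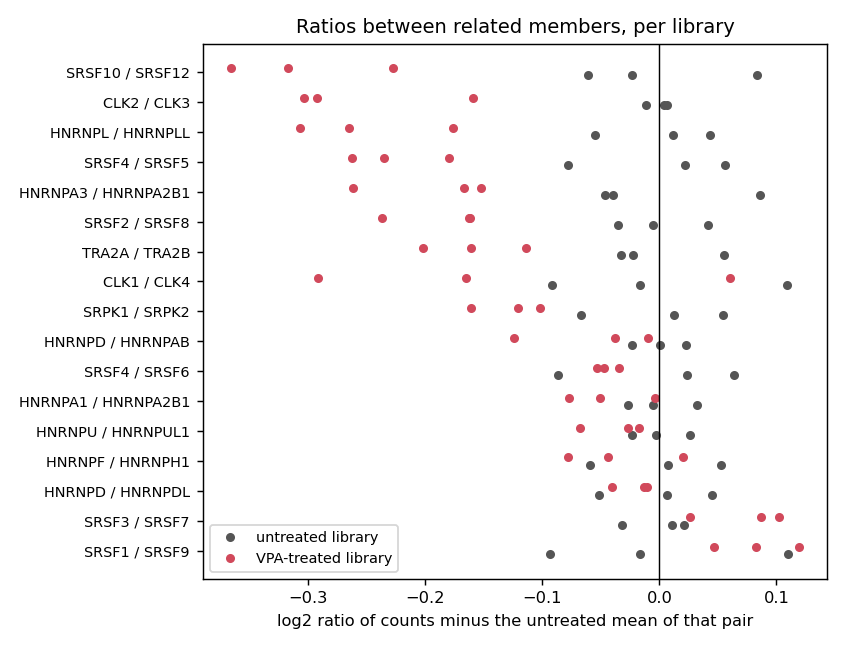
Log2 ratio of counts between 17 pairs of related members in each library, minus the untreated mean of the pair (x axis; points are libraries). The VPA-treated points lie left of the untreated ones for CLK2 to CLK3 and TRA2A to TRA2B, among others, and over them for HNRNPD to HNRNPDL.

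Other genes of the splicing machinery were taken from lists chosen by function. Among 34 tested SR-related genes, which encode proteins with arginine-serine stretches outside the SR family, 26 were lower and 1 higher, with a median log2 fold change of -0.25. U2AF2, which recognises the polypyrimidine tract at the 3' splice site, had a mean of 11126 ± 369 normalized counts without VPA and of 7136 ± 348 with it, and its log2 fold change was -0.64 (adjusted p = 3.96e-11), beyond the size of any member. SRRM2, a nuclear speckle scaffold, was at -0.55 and BCLAF1 at -0.51. The higher gene was SRRM3, which promotes neuronal microexons, at 76.1 ± 11.8 and 156 ± 23.4 normalized counts and a log2 fold change of 1.03 (adjusted p = 1.05e-06). U2AF1 had only 511 counts over the 6 libraries, and the genome build holds a near-identical copy of it, so that its count is uncertain.

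Of 32 tested genes for other hnRNP-type and related RNA-binding proteins, 23 were lower and 5 higher, with a median of -0.24. YBX1 was at a log2 fold change of -0.45, PTBP1, a repressor of neuronal exons, at -0.42 and PCBP2 at -0.42. The higher genes were PCBP3 at 1.21, PCBP4 at 0.82, CELF2 at 0.33, MBNL2 at 0.32 and RBMXL1 at 0.26, the last 2 named after their values were seen. The mean of PCBP3 was 87.6 ± 2.7 normalized counts without VPA and 202 ± 3.82 with it, against 19748 ± 538 and 14773 ± 803 for PTBP1. Among 51 tested core snRNP genes, 41 were lower and 3 higher, with a median of -0.27, led by SNRPA1 at -0.55, PRPF3 at -0.44 and LSM3 at -0.44. PRPF40B rose by 0.69, LSM8 by 0.20 and SNRNP35 by 0.17 on the log2 scale. Of 13 tested genes for further kinases, phosphatases and importins, 9 were lower and 0 higher, with a median of -0.27. DYRK1B at -0.47, TNPO1 at -0.39 and PPP1CA at -0.38 had the largest decreases. TNPO3, the importin that carries SR proteins into the nucleus, was at -0.086 and did not pass (adjusted p = 0.063). For nonsense-mediated decay and the exon junction complex 15 of 18 tested genes were lower and 0 higher, with a median of -0.30, led by SMG9 at -0.56, UPF3A at -0.54 and CASC3 at -0.51. The lists hold genes of low and high counts, and their counts stand beside 30.0% lower and 32.9% higher among all tested genes, and 57.4% lower and 14.6% higher among genes whose mean reached 1000 normalized counts. Each share of lower genes was smaller with ribosomal protein scaling, where for example 6 core snRNP genes were lower and 15 higher.

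Many members also have annotated transcripts that the gene counts do not separate. In GENCODE 44, 33 of the 41 tested members (80.5%) have at least 1 transcript of the nonsense-mediated decay class, against 46.9% of 12877 tested protein-coding genes. All 12 SR protein genes have one, with SRSF7 at 6 and SRSF9 at 5. Of the 21 tested hnRNP genes 14 (66.7%) have one, and HNRNPA2B1 has 35. More transcripts are annotated for the members as a whole, with a median of 13 against 8. Whether such transcripts rose or fell was not tested, since each count covers all transcripts of a gene.

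Promoters of the members, taken from 250 bases before to 50 bases after the RefSeq start, were found for 41 of the 46 members and for 37 of the 41 tested. They were searched on both strands for the GC box GGGCGG, the CCAAT box, the TATA box TATAAA, the ETS site CCGGAAG, the E-box CACGTG, the CRE site TGACGTCA, the palindrome CTCGCGAG, the core CGCATGCG of the NRF1 site and the core AAGATGGC of the YY1 site. The motifs and their lengths were chosen after results were known, and no matches to different motifs overlapped in the members. CACGTG, a site bound by MYC and USF family factors, stood in 8 of 37 tested members (21.6%), against 9.95% of the promoters of all tested genes and 7.43% of all 27305 promoters. CTCGCGAG stood in 4 (10.8%), namely HNRNPK, SRSF10, HNRNPUL1 and SRSF4, against 1.87% and 1.06%. GGGCGG was in 67.6% of the members, 69.7% of tested genes and 44.6% of all promoters, and CCAAT in 40.5%, 36.1% and 35.7%. TATAAA was in 13.5% of the members and 5.61% of tested genes, and CCGGAAG in 13.5% and 18.1%. CGCATGCG matched 1 member, SRSF10, against 3.86% of tested genes, and TGACGTCA and AAGATGGC matched none of the 37, against 3.28% and 5.09%. The median GC content was 65.0% for lower members and 65.8% for those that did not pass. Shown are the promoters of HNRNPM and SRSF4, the most reduced hnRNP and SR protein genes, of HNRNPK, which holds the palindrome among GC boxes, and of CLK3, which did not pass. Capitals mark matches to any of these motifs on either strand, and the sequences are from RefSeq on GRCh38.p14, read along the strand of the gene.
HNRNPM (chr19:8444725-8445024, plus strand): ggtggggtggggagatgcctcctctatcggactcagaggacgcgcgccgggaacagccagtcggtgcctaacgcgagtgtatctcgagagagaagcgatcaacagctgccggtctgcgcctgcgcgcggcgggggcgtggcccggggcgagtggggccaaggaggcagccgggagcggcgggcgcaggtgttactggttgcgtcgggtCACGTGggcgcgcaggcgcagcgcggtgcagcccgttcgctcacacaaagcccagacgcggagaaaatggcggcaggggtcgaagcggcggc
SRSF4 (chr1:29181851-29182150, minus strand): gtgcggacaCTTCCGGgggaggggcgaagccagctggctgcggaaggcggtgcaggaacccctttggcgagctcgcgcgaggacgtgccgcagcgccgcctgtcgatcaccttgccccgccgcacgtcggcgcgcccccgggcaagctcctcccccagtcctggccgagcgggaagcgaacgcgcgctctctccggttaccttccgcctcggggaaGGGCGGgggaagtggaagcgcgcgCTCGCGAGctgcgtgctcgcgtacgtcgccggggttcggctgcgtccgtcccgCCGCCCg
HNRNPK (chr9:83980566-83980865, minus strand): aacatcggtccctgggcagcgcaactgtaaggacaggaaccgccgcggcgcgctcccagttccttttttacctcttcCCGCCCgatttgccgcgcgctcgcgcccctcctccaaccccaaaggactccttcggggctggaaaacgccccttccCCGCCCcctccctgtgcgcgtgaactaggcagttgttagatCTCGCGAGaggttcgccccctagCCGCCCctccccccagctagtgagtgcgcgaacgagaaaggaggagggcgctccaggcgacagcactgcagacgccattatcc
CLK3 (chr15:74608122-74608421, plus strand): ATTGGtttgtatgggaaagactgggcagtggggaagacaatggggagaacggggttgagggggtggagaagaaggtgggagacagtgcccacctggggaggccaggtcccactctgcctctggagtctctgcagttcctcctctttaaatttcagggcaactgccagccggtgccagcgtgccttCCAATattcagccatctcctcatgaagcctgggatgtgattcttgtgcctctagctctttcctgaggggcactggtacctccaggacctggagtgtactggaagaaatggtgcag
In these windows HNRNPM holds the E-box near its start, SRSF4 an ETS site, the palindrome and a GC box on each side of the start, HNRNPK GC boxes around the palindrome, and CLK3 only CCAAT boxes. A match describes the letters of the window and was not tied to binding of any factor.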

How the data were processed

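Strand-specific mRNA libraries (DNBSEQ protocol) of 3 untreated and 3 VPA-treated HEK293T samples were sequenced. After read cleaning with SOAPnuke, the authors mapped to hg38 by STAR, ran htseq-count, and deposited raw counts per gene, not normalized. The submitters' processing notes name STAR 2.7.10b and HTSeq 2.0.1; annotation and strand setting of the counting are not given in the sources used here. The 5 summary lines name no gene and were not tested. Per library, 6.80% to 7.69% of reads had no feature, 1.97% to 2.10% were ambiguous and 2.81% to 2.92% not unique.

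Treatment labels gave the groups. Totals on genes, 18622267 to 18828495, set the precision. The test was edgeR 4.0.16 (R 4.3.3; TMM, filterByExpr at a count minimum of 10, robust quasi-likelihood fit on condition, prior count 0.125, Benjamini-Hochberg adjusted p under 0.05), checked on simulated counts. Standard errors came from dividing each log2 fold change by the square root of its F. Alternatives were DESeq2 1.42.0, other scalings, filters and thresholds, the replicate block and leaving out each library. Every member may be named. Values per library are given for the 12 members of largest change among those called, the kinases, the TRA2 genes and the 5 highest levels per length; of each other list, up to 3 called genes a direction are named. HNRNPLL, SRSF12 and other values per library outside this rule were chosen after their values were seen. Members and lists were chosen with earlier results of these data known. Coordinates and promoters are from RefSeq on GRCh38.p14, transcripts from GENCODE 44. Replicates of 1 group were distinct, at a mean chi-square per gene of 1.62 to 4.63.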

Additional observations from a re-analysis of the deposited data

How the results depend on the processing

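The scaling of the libraries was the choice that moved most. With ribosomal protein scaling 7 members were lower and 5 higher, with a median of 0.019. Lower and higher genes then numbered 7 and 8 of the SR-related list, 5 and 11 of the other hnRNP-type list, 6 and 15 of the core snRNP list, 2 and 5 of the SR phosphorylation and import list, and 5 and 4 of the nonsense-mediated decay list. With library totals 1 member was higher, 16 SR-related and 27 core snRNP genes were lower, and 1 gene was higher in each of the SR phosphorylation and nonsense-mediated decay lists. The median of the members was -0.28 with DESeq2, -0.19 with the upper quartile, -0.12 with library totals, -0.28 without a filter and -0.23 with at least 10 counts in every library. The cause of these shifts was not tested beyond the scaling itself. Higher genes made up 52.3% of all calls with TMM, 63.0% with the upper quartile, 73.9% under library totals and 91.7% under ribosomal protein scaling.

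Leaving out each library gave 34 to 35 lower members, 0 higher and a median of -0.30 to -0.24. The 34 calls of lower members were all kept with DESeq2, with DESeq2 size factors, with both other filters and with the block. The upper quartile lost 3 of them, library totals 9 and ribosomal protein scaling 27, and 1 was lost without untreated replicate 2. Calls gained with ribosomal protein scaling were 5, of which 3 (HNRNPLL, SRPK2 and CLK4) came with a change of sign. Over 574 values of single members compared, 31 had another sign than with TMM, whether called or not. The sign of SRSF12 changed to -0.016 with DESeq2, -0.0056 with DESeq2 size factors, -0.014 without a filter, and in 3 of the 6 fits that left out a library, which ranged from -0.051 to 0.063. CLK4 was at 0.013 with the upper quartile. With library totals CLK4 was at 0.079, HNRNPA1L2 at 0.046, HNRNPLL at 0.031 and SRPK2 at 0.057. With ribosomal protein scaling the sign changed for CLK1 (0.093), CLK2 (0.062), CLK4 (0.22), HNRNPA1L2 (0.19), HNRNPA1L3 (0.057), HNRNPA2B1 (0.010), HNRNPF (0.024), HNRNPH1 (0.059), HNRNPH3 (0.052), HNRNPLL (0.17), HNRNPR (0.039), HNRNPU (0.039), HNRNPUL1 (0.076), HNRNPUL2 (0.054), SRPK1 (0.071), SRPK2 (0.20), SRSF1 (0.019), SRSF11 (0.091), SRSF5 (0.022) and SRSF8 (0.10).

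Same-numbered libraries had deviations correlated at 0.14, 0.021 and 0.080, against -0.11 to 0.031 for libraries of different number. Whether same-numbered libraries share more than a number was not tested. With the replicate number as a block 36 members were lower and 0 higher, HNRNPA1L3 and HNRNPLL being added. Of the members that did not pass, SRSF12, HNRNPA1L3, HNRNPA1L2 and CLK4 had standard errors of 0.084, 0.096, 0.091 and 0.072. These were above the 0.067 that no lower member exceeded. Those of HNRNPLL, SRPK2 and CLK3, 0.051, 0.053 and 0.056, were not. The part of depth in the missed calls was not tested.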
